A study of Homo sapiens with 19 samples.

Results

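Hyper-ploid sublines of MDA-MB-231, a human breast cancer cell line grown from a metastatic effusion, were compared with modal-ploid sublines of the same cells. The 4 arrays were chosen by their titles out of 19 in the series: a hyper-ploid and a modal-ploid subline of the line 1833, and a hyper-ploid and a modal-ploid subline of the line 4175. The title of the series places ploidy doubling as spontaneous and asks how it relates to metastasis. Line 1833 is among the 4 strongly bone metastatic lines of the series and line 4175 among its 4 strongly lung metastatic lines, and both descend from MDA-MB-231. The other arrays are 3 weakly bone metastatic lines, 3 weakly lung metastatic lines and the parental line. All cells were cultured in DMEM with fetal serum and the drugs that select each line, and RNA was taken before the cells were confluent. Each subline had 1 array, so a pair compares 1 hyper-ploid with 1 modal-ploid array, and the labels do not say whether a subline is a clone. P-values over the 2 pairs therefore measure only the spread between these arrays, which may be technical. DNA content is given by the labels alone, since the arrays hold no measure of it.

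Cells that skip division or fuse carry more than the usual chromosome sets, and such cells often enlarge, hold extra centrosomes and missegregate chromosomes in later divisions. Whole chromosome sets can raise all genes together, and scaling of an array to a common level removes a change that all genes share. What the arrays can show is therefore a change of 1 gene, list or chromosome relative to the rest. MDA-MB-231 cells are mesenchymal in form, make inflammatory cytokines through the transcription factor NF-kB, and secrete collagenases that open the matrix around them.

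Levels are given as signals of Affymetrix expression array probe sets in array units after scaling to a common median, and differences as log2(signal + 16), hyper-ploid minus modal-ploid. The 4 arrays had median signals before scaling of 89.0 to 97.4, below the 123.5 to 162.7 of the other 15 arrays. Their spike-in controls were also dimmer, at a mean log2 signal of 9.52 to 9.77 against 10.2 to 11.7. The 4 arrays therefore stand apart from the rest, and levels on the other arrays are given only as a description. The ratio of 3' to 5' GAPDH probe sets, a sign of RNA integrity, was -0.25 to -0.17 on the log2 scale on the 4 arrays. The cells matched their label: the keratin genes KRT18 and KRT8 and the mesenchymal filament gene VIM were bright on all 4 arrays, with VIM at 21612 and 19616 in hyper-ploid and 19502 and 21875 in modal-ploid sublines. Of 7 endothelial and stromal markers 5 did not exceed the 40th percentile of any of the 4 arrays. Of 5 leukocyte markers 1 did not, and it was PTPRC, which defines leukocytes. PTPRC was at 16.2 and 13.9 in hyper-ploid and 14.6 and 6.14 in modal-ploid sublines. CD53 and LAPTM5 exceeded the percentile on all 4 arrays, CD14 on 3 and CD3D on 2. The summed signal of the 5 leukocyte markers was 1927 and 2662 in hyper-ploid and 1506 and 4421 in modal-ploid sublines, most of it from LAPTM5, which was 1441 and 2307 against 1147 and 4011.

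The question of the comparison is which genes differ between hyper-ploid and modal-ploid cells in both lines. Of 9554 genes tested, 1 passed an adjusted p of 0.05 in limma when fitted with line of origin as block, or 0.0105%, and it was PRKCZ. At an unadjusted p under 0.05 there were 490 genes (5.13%), 246 higher (2.57%) and 244 lower (2.55%) in hyper-ploid cells. The 1833 pair held 298 genes (3.12%) past 2-fold, of which 155 were higher (1.62%) and 143 lower (1.5%). The 4175 pair held 481 (5.03%), of which 203 were higher (2.12%) and 278 lower (2.91%). More genes were past 2-fold in the 4175 pair than in the 1833 pair. The pairs shared 22 genes past 2-fold in the same direction (0.23%), which is 7.38% of the 1833 pair's genes and 4.57% of the 4175 pair's. Another 27 genes (0.283%) were past 2-fold in opposite directions, and at 1.5-fold 174 genes (1.82%) went the same way and 189 (1.98%) opposite ways. The sign of the difference was the same in both pairs for 46.8% of all genes, and Pearson's r across genes was -0.03 (9554 genes, which are not independent replicates, with the 2 arrays of a pair in every point). Both hyper-ploid arrays lay above both modal-ploid arrays for 1149 genes (12%) and below both for 978 (10.2%).

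**Figure D1:**
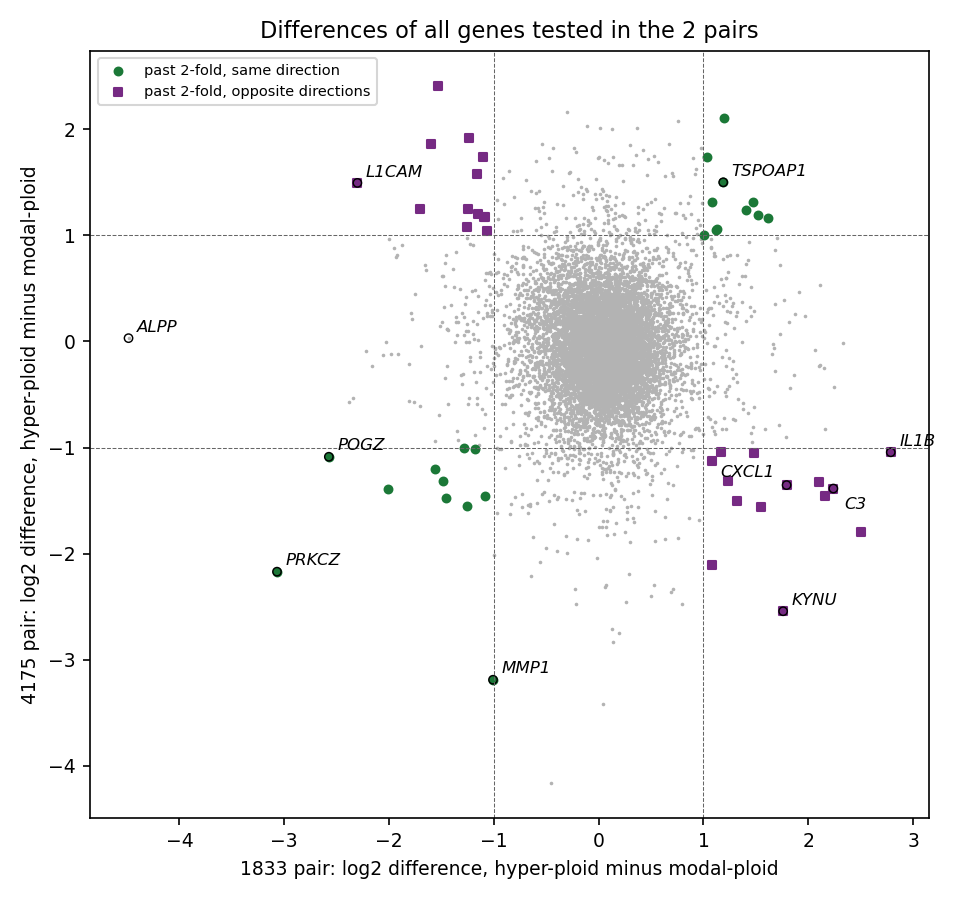
Each grey point is 1 of 9554 genes, with its log2 difference (hyper-ploid minus modal-ploid) in the 1833 pair on the x axis and in the 4175 pair on the y axis. Dashed lines mark 2-fold. Green circles are the 22 genes past 2-fold in the same direction in both pairs and purple squares the 27 in opposite directions, and the cloud shows no tilt (r = -0.03).

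PRKCZ encodes protein kinase C zeta, an atypical member of the family that needs no calcium and, bound to PARD6 and PARD3, sets up apical and basal sides in epithelial cells. Its signal was 12.2 in hyper-ploid and 221 in modal-ploid cells of 1833. In the sublines of 4175 it was 65.5 in hyper-ploid and 350.5 in modal-ploid cells. Both hyper-ploid arrays were below both modal-ploid arrays and below the 40th percentile of their arrays, which is used here as the level of background. The log2 difference was -3.07 for 1833 and -2.17 for 4175, a mean of -2.62 (SE 0.29, limma adjusted p = 0.0194, n = 2 pairs), and PRKCZ fell at least 3.74-fold in scaled signal when the hyper-ploid level is set at the percentile. Bounds of this kind are ratios of geometric means of the scaled signals, without the offset of 16. Limma called 0 genes without the block for line of origin (153 at an unadjusted p under 0.05), under quantile normalisation (471), a common trimmed mean (462), an offset of 8 (493), no filter (606) or the deposited ratios (445). With the spread taken from 14 of the other lines limma called ALPP alone over both pairs (198 genes, 2.07%, unadjusted), not PRKCZ, and limma called 0 genes without the 1833 pair (308 unadjusted) and 1 gene, ALPP, without the 4175 pair. On the other 15 arrays PRKCZ ranged from 27.0 to 439. It was 258 to 439 on the strong bone lines, 100.3 to 269 on the strong lung lines and 27.0 to 82.3 on the weak lung lines. The hyper-ploid subline of 1833 thus had the lowest PRKCZ signal of the 19 arrays, while that of 4175 lay within the range of the weak lung lines.

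Of the 31 measured genes of protein kinase C and cell polarity, only PRKCZ passed limma's threshold, against 0.0105% of all genes. The list is described because it holds the gene that passed in earlier results of these data. Its 1 call was thus known in advance and is no result about the family. In both pairs 9 of the 31 were lower, or 29.0%, and 7 were higher, against 22.3% and 24.5% of all genes. Their median log2 difference was 0.03 for 1833 and -0.08 for 4175, against 0.06 and -0.06 for all genes. The other atypical kinase, PRKCI, had 707 and 759 in hyper-ploid and 861 and 661 in modal-ploid sublines, groups that overlapped, with differences of -0.28 and 0.19. The conventional kinase PRKCA had -0.12 and -0.77, and the calcium-independent kinase PRKCD, which acts in apoptosis, 0.39 and 0.60. PRKCD was above in hyper-ploid cells in both pairs, at 372 and 507 against 280.1 and 329. Among the partners of the atypical kinases, PARD6A had 244 and 126 against 295 and 236, below in both pairs, while PARD3 had 0.09 and -0.14. SQSTM1, the p62 scaffold that binds atypical kinases and feeds NF-kB, had differences of 0.75 for 1833 and -0.37 for 4175. None of these partners passed limma's threshold.

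Of the 22 genes past 2-fold in the same direction, 11 were above the 40th percentile on both arrays of their higher group. Of these 9 were lower in hyper-ploid cells (PRKCZ, MMP1, POGZ, FBLN5, ZNF276, MPPED1, TUB, ATF6 and SOX4) and 2 were higher (INE1 and TSPOAP1). The members just inside and outside the 2-fold limit were close: the smaller of the 2 log2 differences had a size of 1.008 for MMP1 and 1.004 for KCTD17 and ARHGEF16 inside it, and 0.997 for FCGRT, 0.987 for IL36RN and 0.977 for GPC4 outside it.

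MMP1, the interstitial collagenase, was 4535 and 815 in the hyper-ploid sublines of 1833 and 4175 against 9136 and 7563 in the modal-ploid ones. Both hyper-ploid arrays were below both modal-ploid arrays, with differences of -1.01 for 1833 and -3.19 for 4175. Its mean was -2.10 (SE 0.42, limma adjusted p = 0.251), so it did not pass the threshold, although it did in 3 alternatives (a prior with a trend, and 2 other filters on dim genes). MMP3, a stromelysin, was 137 and 126 against 229.6 and 282, with differences of -0.68 and -1.06.

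POGZ encodes a zinc finger protein that binds heterochromatin protein and acts in mitotic chromosome separation. Its signal was 49.7 and 193 in hyper-ploid against 375 and 428 in modal-ploid sublines, with differences of -2.57 and -1.09 (limma adjusted p = 0.251). Like MMP1, POGZ passed the threshold only in the alternatives with a trend in the prior and with the other filters. A second POGZ probe set was dim on all 4 arrays and gave -0.79 and 0.27, so it did not show the difference in the 4175 pair. ATF6, a sensor of unfolded protein in the endoplasmic reticulum, was 96.1 and 88.9 against 222 and 271, with differences of -1.09 and -1.45. Its second probe set gave -0.35 and -0.36. SOX4, a transcription factor of progenitor cells and of the published lung metastasis signature, was 282 and 502 against 661 and 1028. Both ATF6 arrays and both SOX4 arrays of the hyper-ploid cells were below both of the modal-ploid cells.

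FBLN5, a secreted protein of elastic fibres, was 10.4 and 19.2 in hyper-ploid against 90.6 and 76.1 in modal-ploid sublines. TUB, the founding member of the tubby family, was 30.4 and 56.3 against 121 and 150.1, but a second TUB probe set gave 0.27 and 0.30, the opposite direction. The 2 higher genes were dim in the modal-ploid cells. TSPOAP1, whose product binds the mitochondrial translocator protein, was 98.8 and 104 against 34.4 and 26.3, at least 1.43-fold higher. INE1, a non-coding transcript of the X chromosome, was 97.9 and 124 against 26.9 and 43.4, at least 1.56-fold higher. Apart from PRKCZ, limma gave these 11 genes adjusted p-values of 0.251 to 0.38. Besides MMP1 and POGZ, FBLN5 passed under a filter on the 4 ploidy arrays and ATF6 under a 60th percentile filter. Several of these genes varied as widely on the other 15 arrays: TSPOAP1 ranged from 5.85 to 133 and INE1 from 12.99 to 134.

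**Figure D2:**
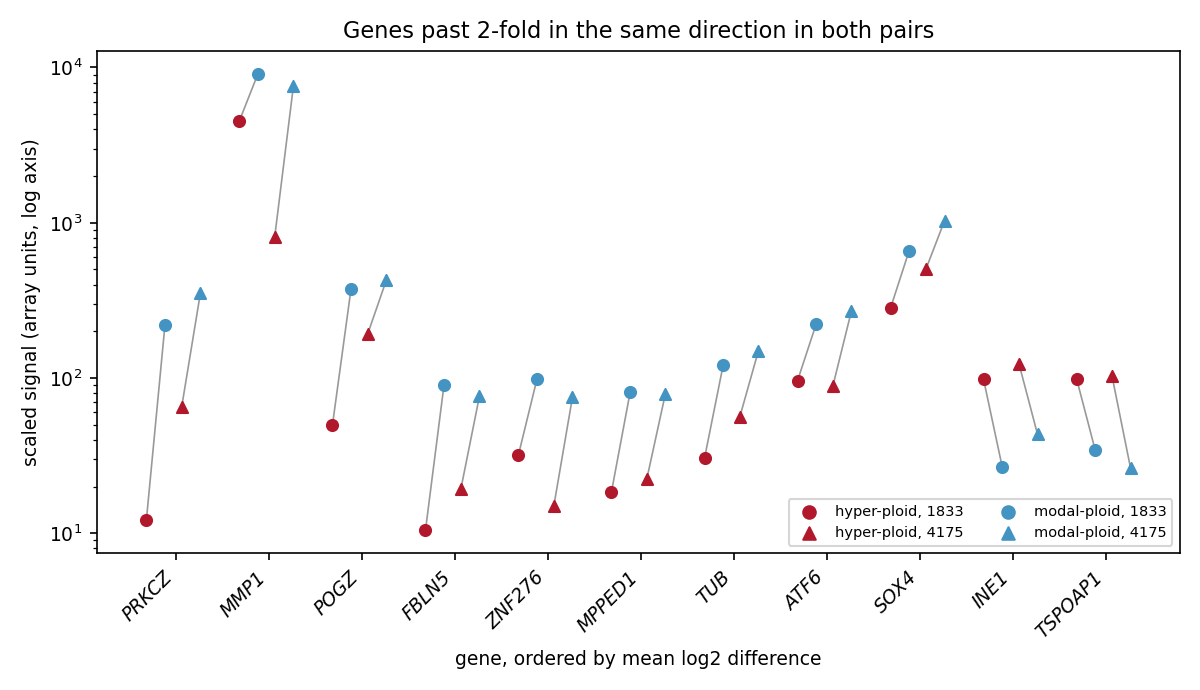
Scaled signals on a log axis of the 11 genes past 2-fold in the same direction and above background, ordered by mean difference, with red symbols for hyper-ploid and blue for modal-ploid sublines, circles for 1833 and triangles for 4175, and grey lines joining the arrays of a pair. Red lies below blue in both pairs for 9 genes and above it for INE1 and TSPOAP1.

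Epithelial genes had the lowest list median in the 1833 pair and lay below all genes in the 4175 pair too, where the bone metastasis, G1, p53 and interferon lists lay lower: 17 of 26 were lower in both pairs, or 65.4%, against 22.3% of all genes. Their median difference was -0.22 for 1833 and -0.36 for 4175, and 0 of 26 passed limma's threshold (4 lower and 1 higher at an unadjusted p under 0.05). KRT19, a keratin of simple epithelia, was 2938 and 243 in hyper-ploid against 4641 and 732 in modal-ploid sublines, with differences of -0.66 and -1.53. The 2 lines differed more from each other than the cells of a pair did, and the KRT19 groups overlapped. PKP2, a desmosome plaque protein, was 209 and 74.7 against 323 and 208. KRT7 had differences of -0.83 and -0.50, and JUP, plakoglobin, -0.58 and -0.62. Among the exceptions, CD24, a surface glycoprotein of luminal cells, had -1.88 for 1833 and 0.91 for 4175. Its other probe sets were also lower in the 1833 pair. In the 4175 pair they gave 0.91, 0.21, 0.20, -0.18 and -0.53, so the direction of CD24 there is not settled. ST14, the membrane protease matriptase, was above in hyper-ploid cells in both pairs, at 78.2 and 93.9 against 35.7 and 55.7.

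The laminin receptor subunits ITGA6 and ITGB4, which pair to anchor epithelial cells at hemidesmosomes, were also lower by value in both pairs. ITGB4 was 213 and 874 in hyper-ploid against 425 and 1784 in modal-ploid sublines, differences of -0.95 and -1.02. A second ITGB4 probe set gave -1.21 and -1.05, and a dimmer one 0.26 and -0.82. ITGA6 was 1334 and 1938 against 2179 and 3099, with both hyper-ploid arrays below both modal-ploid arrays. ITGA2, a collagen receptor subunit, was 358 and 138 against 513 and 576, also without overlap. None of the 25 integrin and adhesion genes passed limma's threshold, and 7 were lower in both pairs, or 28%, against 22.3% of all genes. Their list medians were 0.03 and -0.23.

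Targets of YAP and TEAD, transcriptional regulators that respond to cell shape and stiffness, had medians of -0.11 and -0.34. Of 24 targets 14 were lower in both pairs, or 58.3%, against 22.3% of all genes (0 past limma's threshold, 2 lower and 0 higher at an unadjusted p under 0.05). IGFBP3 was 1139 and 771 against 1474 and 1438, and ANKRD1, a muscle ankyrin protein widely used as a YAP readout, 516 and 109 against 757 and 154. THBS1, thrombospondin, had -0.59 for 1833 and 0.74 for 4175. Published lung metastasis genes had medians of -0.21 and -0.33, with 7 of 20 lower in both pairs, or 35%, against 22.3% of all genes. Of the 20, 0 were past limma's threshold. That signature was drawn from MDA-MB-231 sublines, 4175 among them, so its direction is not independent evidence. Besides MMP1 and SOX4, its member IL13RA2, a decoy receptor of interleukin 13, was 66.6 and 3268 against 207 and 4918. ID1, an inhibitor of differentiation factors, was 729.6 and 1098 against 1161 and 1426. VCAM1, a leukocyte adhesion molecule, had 0.15 for 1833 and -1.82 for 4175.

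**Figure D3:**
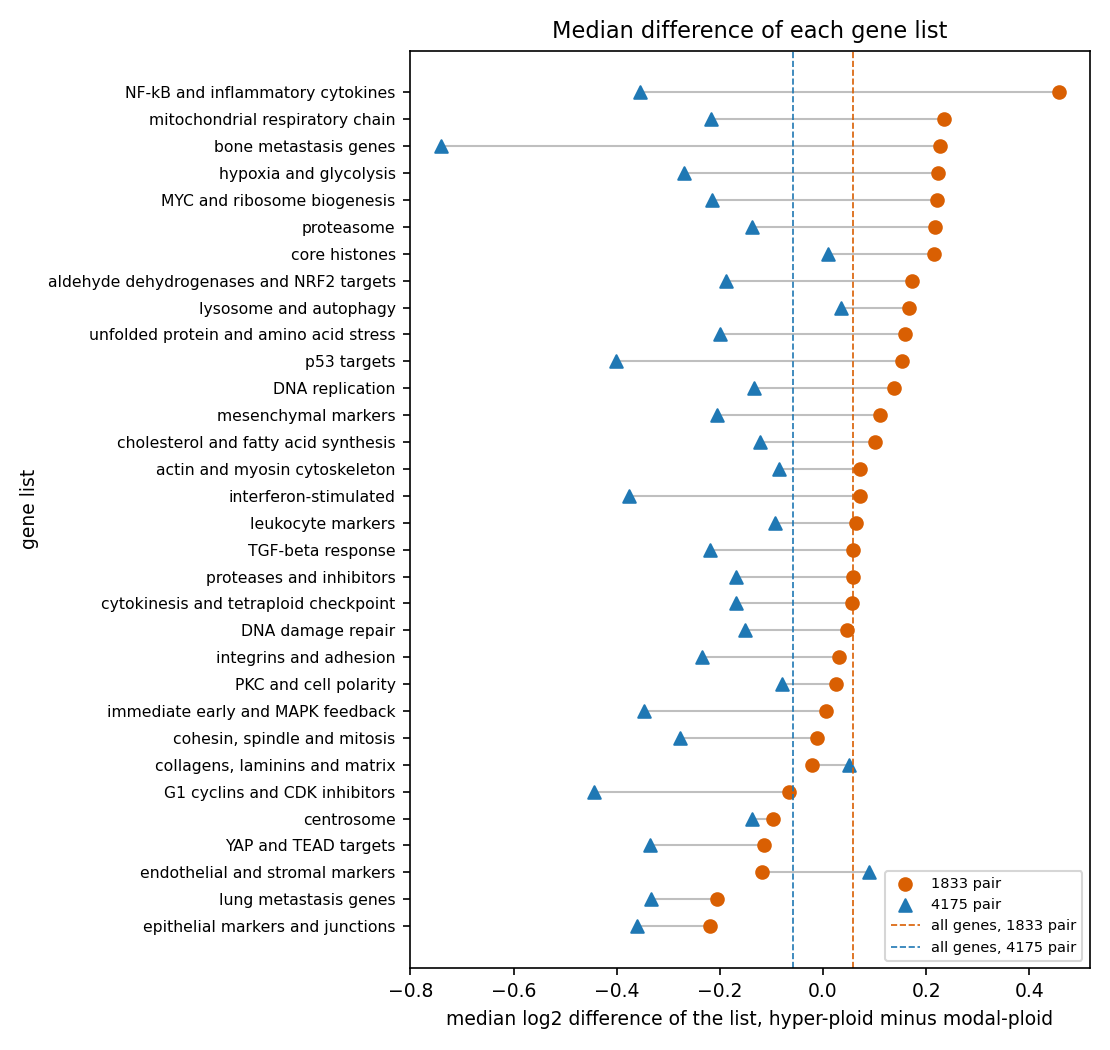
Median log2 difference (hyper-ploid minus modal-ploid) of each gene list in the 1833 pair (orange circles) and the 4175 pair (blue triangles), with dashed lines at the median of all genes in each pair. Epithelial genes, lung metastasis genes and YAP and TEAD targets lie left of both dashed lines, while NF-kB and bone metastasis genes lie right of the line in the 1833 pair and left of it in the 4175 pair.

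The difference between the pairs was tested with the spread taken from 14 of the other lines, and 1 gene passed limma's threshold, or 0.0105%, with 205 (2.15%) at an unadjusted p under 0.05. ALPP, placental alkaline phosphatase, was 8.23 in hyper-ploid and 527 in modal-ploid cells of 1833. In the sublines of 4175 it was 3.92 and 3.51, both at background. The difference was -4.48 in the 1833 pair, at least 7.34-fold lower, and 0.03 in the 4175 pair, and the pairs differed by -4.52 (SE 0.45, limma adjusted p = 0.000855). The parental line had 86.7 and the other 14 lines 3.81 to 13.7, so it is the modal-ploid subline of 1833 that stands apart. The call rests on that 1 array, and it is lost under both filters that drop genes dim on most arrays. Its spread comes from those 14 lines, where ALPP was at background, so the SE holds no variation of ALPP where it is expressed. The test also assumes that sublines vary like lines of 1 metastatic group. ALPP has near-identical relatives, and the probe set may read them too.

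The 27 genes past 2-fold in opposite directions held several inflammatory genes, and NF-kB and cytokine genes were the list whose medians lay furthest apart after the bone metastasis genes. The median was 0.46 for 1833 and -0.36 for 4175. In the 1833 pair 24 of 30 were higher, against 57.5% of all genes, and 8 were past 2-fold higher, against 1.62%. In the 4175 pair 21 of 30 were lower, against 55.3% of all genes, and 4 were past 2-fold lower, against 2.91%. No gene of the list passed limma's threshold in either test. The leukocyte genes LAPTM5 (0.33 and -0.79) and CD14 (1.08 and -2.11) went the same 2 ways. CD53 had 0.06 and 0.65, CD3D -0.18 and 1.06, and the defining marker PTPRC was at background on all 4 arrays. The 13 measured leukocyte markers had medians of 0.06 and -0.09. Across 10 settings these ran from -0.03 to 0.44 for 1833 and from -0.55 to 0.03 for 4175. Whether leukocyte genes have a part in the NF-kB differences was not tested.

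Interleukin 1 stood at the head of the list. IL1B was 2571 in hyper-ploid and 359 in modal-ploid cells of 1833, and 1542 in hyper-ploid and 3198 in modal-ploid cells of 4175. Its difference was 2.79 for 1833 and -1.04 for 4175, and a second probe set gave 3.23 and -1.38. IL1A had 216 and 36.0 in the hyper-ploid and modal-ploid sublines of 1833 and 109 and 207 in those of 4175. A second IL1A probe set, below background on all 4 arrays, gave 0.33 and 0.42 and did not show the opposite directions. For both genes the modal-ploid subline of 1833 was the lowest of the 4 arrays. Among the chemokines that call in neutrophils, CXCL1 had 802 against 220.2 in the 1833 pair and 566 against 1471 in the 4175 pair. CXCL2 had 438 against 194 and 334 against 624, and CXCL8 differences of 0.35 and -0.84. CXCL1, CXCL2 and CXCL3 are similar in sequence, so their probe sets may share signal. CSF1, which sustains macrophages, had differences of 0.62 and -1.21, and CSF3, which drives neutrophil production, 1.38 and -0.58. Differences of the NF-kB subunits and inhibitor were smaller: NFKB2 had 0.50 and -0.42, RELB 0.79 and -0.12, and NFKBIA, the inhibitor that NF-kB itself induces, 0.52 and -0.60.

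**Figure D4:**
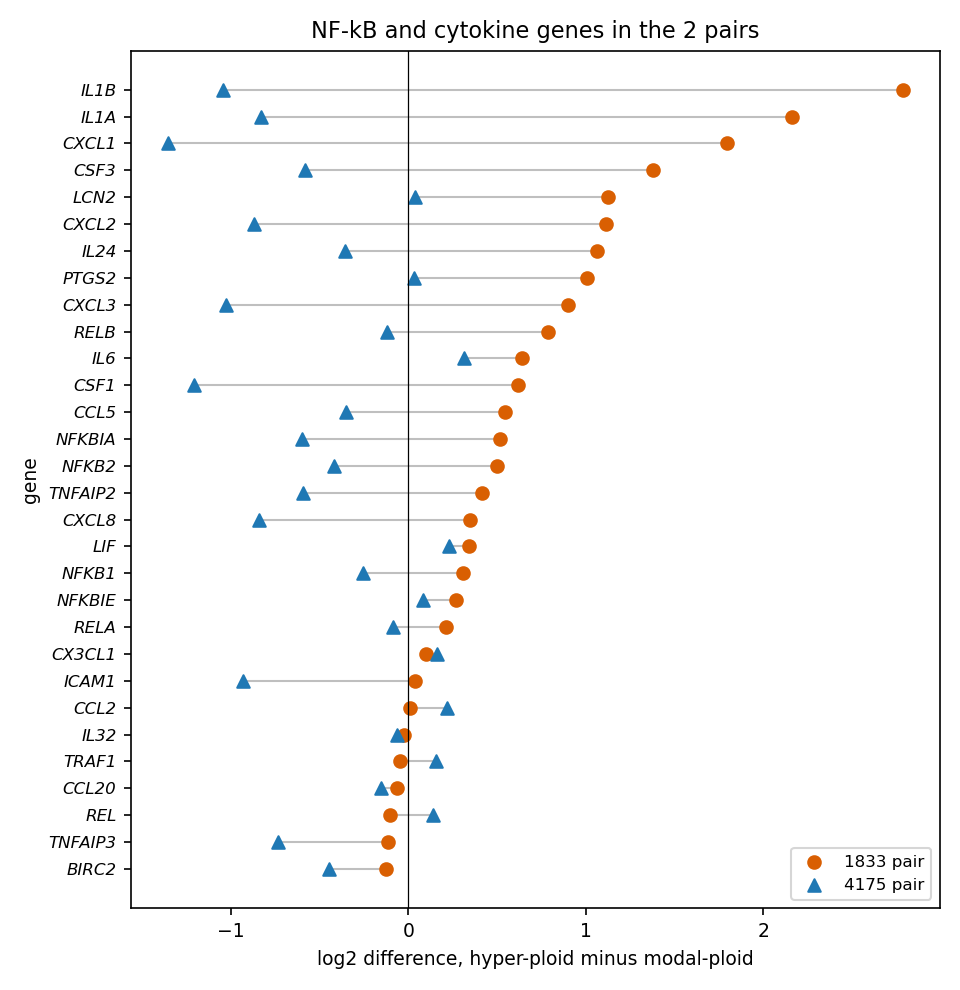
Log2 difference (hyper-ploid minus modal-ploid) of the 30 measured NF-kB and cytokine genes in the 1833 pair (orange circles) and the 4175 pair (blue triangles), joined by a grey line for each gene and ordered by the 1833 pair. IL1B, IL1A and CXCL1 lead, with points right of 0 in the 1833 pair and left of 0 in the 4175 pair.

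The promoters of 3 chemokine genes of this list are shown because each matches, just before the start, letters of the kappaB type that NF-kB binds. They run from 250 bases before to 50 after the start of each gene in RefSeq (GRCh38.p14), on chromosome 4, at chr4:73869143-73869442 (CXCL1, plus strand), chr4:74099146-74099445 (CXCL2, minus strand) and chr4:73740319-73740618 (CXCL8, plus strand). Capitals mark the match to GGANTTTCC, searched on both strands, which is no proof of binding.
CXCL1: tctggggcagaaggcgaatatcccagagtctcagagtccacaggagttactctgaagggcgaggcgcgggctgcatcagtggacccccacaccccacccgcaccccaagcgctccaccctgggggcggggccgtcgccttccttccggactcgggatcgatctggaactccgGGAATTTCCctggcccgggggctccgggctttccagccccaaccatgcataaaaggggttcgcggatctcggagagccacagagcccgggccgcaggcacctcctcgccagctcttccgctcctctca
CXCL2: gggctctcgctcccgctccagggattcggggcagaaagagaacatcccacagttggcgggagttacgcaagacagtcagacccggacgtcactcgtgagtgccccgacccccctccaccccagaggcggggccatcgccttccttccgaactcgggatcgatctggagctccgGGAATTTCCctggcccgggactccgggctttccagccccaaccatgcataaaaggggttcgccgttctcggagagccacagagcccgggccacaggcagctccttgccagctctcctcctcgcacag
CXCL8: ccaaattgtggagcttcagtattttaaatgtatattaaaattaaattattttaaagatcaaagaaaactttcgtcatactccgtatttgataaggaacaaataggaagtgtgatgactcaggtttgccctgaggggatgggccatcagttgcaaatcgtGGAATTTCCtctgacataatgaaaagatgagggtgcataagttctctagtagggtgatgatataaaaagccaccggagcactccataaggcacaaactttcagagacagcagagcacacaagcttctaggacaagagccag
The 3 matches have the same 9 letters. A match was found in 577 of 35116 RefSeq promoters of this length, or 1.64%, and in 12 of the 22 measured genes of the list that have an entry, or 54.5%. The list was drawn up as NF-kB genes, so its higher share may follow from that choice and is no result of these arrays. The 1.64% counts promoter entries, while a gene of the list counts if any of its entries matches. The 12 genes with a match had a median difference of 0.42 for 1833 and -0.67 for 4175, and the 10 without one 0.71 and -0.26. Of the 12 genes with a match, 8 were higher in the 1833 pair and lower in the 4175 pair. In the whole list 24 of 30 were higher in the 1833 pair and 21 of 30 lower in the 4175 pair. For all genes these shares were 57.5% and 55.3%. The count thus follows the list as a whole, and a tie to the match was not tested.

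Other genes went the same 2 ways. KYNU, an enzyme of tryptophan breakdown, was 2942 against 858 in the 1833 pair and 533 against 3185 in the 4175 pair, and 2 further bright probe sets gave 1.85 and -2.14, and 1.81 and -2.24, as the differences of the pairs. C3, the central complement component, was 132 against 15.4 and 201 against 551. G0S2, an inhibitor of fat breakdown, was 6828 against 1520.5 and 2473 against 6803, and GDF15, a stress cytokine that p53 can induce, 1357 against 535 and 215 against 639.8. In the reverse sense, L1CAM, a neural adhesion molecule, was 50.1 against 310.0 in the 1833 pair and 1243 against 431 in the 4175 pair. LAMA4, a laminin chain of vessel walls, had -1.23 and 0.91. Published bone metastasis genes, drawn from MDA-MB-231 sublines with 1833 among them and so not independent, had medians of 0.23 and -0.74 over 10 genes. IL11, a cytokine that stimulates bone resorption, was 2284 against 1209 and 2702 against 3592. JAG1, a Notch ligand, was 1561 against 1089 and 249 against 622. Of its other probe sets 2 were lower in both pairs, with -0.46 and -2.04 in one and -0.31 and -0.57 in the other, so only the 4175 direction of JAG1 was shared by these 3 probe sets. CXCR4, a chemokine receptor, went the other way, with -0.34 and 0.37.

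Interferon-stimulated genes lay below all genes in the 4175 pair: 37 of 47 were lower there (55.3% of all genes), 4 of them past 2-fold (2.91% of all genes), with a median of -0.38. In the 1833 pair the median was 0.07, close to all genes, and 0 of the list passed limma's threshold over both pairs. BST2, tetherin, which holds virus particles at the cell surface, was 124 in hyper-ploid and 704 in modal-ploid cells of 4175, against 771 and 472 in those of 1833. TRIM22, an antiviral ligase, was 43.2 and 176 in the sublines of 4175 and 195 and 183 in those of 1833. MX1, a dynamin-like antiviral GTPase, was 44.99 and 127 in the sublines of 4175 and 171 and 162 in those of 1833. OAS1, which makes an RNase L activator, did the reverse, with -1.47 for 1833 and 0.53 for 4175. The promoters of BST2 (chr19:17405581-17405880, minus strand) and MX1 (chr21:41420308-41420607, plus strand) are shown for the interferon response element of the list, from the same RefSeq table, with matches on either strand to GAAA, any 2 bases and GAAA again in capitals.
BST2: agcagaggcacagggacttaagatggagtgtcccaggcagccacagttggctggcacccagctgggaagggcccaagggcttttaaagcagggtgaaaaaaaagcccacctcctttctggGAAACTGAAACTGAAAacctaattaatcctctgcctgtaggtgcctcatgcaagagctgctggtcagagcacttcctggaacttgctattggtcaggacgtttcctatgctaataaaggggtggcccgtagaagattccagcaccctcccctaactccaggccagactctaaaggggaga
MX1: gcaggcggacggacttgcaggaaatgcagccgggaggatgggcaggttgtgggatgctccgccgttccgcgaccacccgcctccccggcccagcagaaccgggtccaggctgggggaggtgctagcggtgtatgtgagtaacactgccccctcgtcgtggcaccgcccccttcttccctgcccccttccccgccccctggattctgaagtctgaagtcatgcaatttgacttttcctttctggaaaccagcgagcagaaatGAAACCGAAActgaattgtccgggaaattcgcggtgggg
BST2 holds 2 overlapping matches and MX1 holds 1. The element was found in 1255 of the 35116 promoters, or 3.57%, and in 25 of 38 measured genes of the list with an entry, or 65.8%. This share too may follow from the choice of the list, and it counts genes where the 3.57% counts promoter entries. The median difference in the 4175 pair was -0.41 for the 25 genes with a match and -0.30 for the 13 without.

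No gene of the cell division lists passed limma's threshold. Of 50 genes of cohesin, spindle and mitosis, 22 were lower in both pairs, or 44% against 22.3% of all genes, with medians of -0.01 and -0.28. CENPE, a kinetochore motor, was 412 and 726 in hyper-ploid against 668 and 1165 in modal-ploid sublines, and CENPF 1062 and 1451 against 1211 and 2129.7. The 20 genes of cytokinesis and the tetraploid checkpoint had medians of 0.06 and -0.17. PLK4, the kinase that starts centriole duplication, was 723 and 763 against 965 and 1054, while its other probe sets gave -0.47 and -0.75, and 0.38 and -0.63. CASP2, a caspase tied to extra centrosomes, had -0.73 and 0.20. The 27 centrosome genes had medians of -0.10 and -0.14, and the 43 DNA replication genes 0.14 and -0.13. G1 cyclins and their inhibitors were low mainly in the 4175 pair, at -0.44 against -0.07 in the 1833 pair. Of the 20 genes 9 were lower in both pairs, or 45%, against 22.3% of all genes. CCND1 was 1864 against 3166 in the 4175 pair and 2823 against 3057 in the 1833 pair. The 18 p53 targets, in a cell line known for mutant p53, had 0.15 for 1833 and -0.40 for 4175. CDKN1A, the p21 inhibitor, was 440.4 against 911 in the 4175 pair and 542 against 471 in the 1833 pair. FAS, a death receptor, was 97.2 and 71.8 in hyper-ploid against 168 and 124 in modal-ploid sublines.

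The pairs also differed by brightness, which limits what the medians of bright lists show. With genes split by mean level into 3 equal parts, the brightest had a median of 0.10 for 1833 and -0.18 for 4175, and the dimmest 0.01 and 0.19. Respiratory chain genes had 0.23 and -0.22 with 27 of 30 higher in the 1833 pair (57.5% of all genes) and 26 of 30 lower in the 4175 pair (55.3%). Under quantile normalisation, which gives all arrays the same spread of levels, their medians were 0.10 and -0.01. Hypoxia and glycolysis genes had 0.22 and -0.27 (quantile 0.10 and -0.07). Ribosome biogenesis genes had 0.22 and -0.21 (quantile 0.06 and -0.10), and proteasome genes 0.22 and -0.14 (quantile 0.06 and 0.07), where the 4175 pair turned its sign. The epithelial medians were -0.27 and -0.29 and the NF-kB medians 0.37 and -0.32 under quantile normalisation, each with its sign kept.

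Some large differences belonged to 1 pair. In the 4175 pair ALDH3A1, an aldehyde dehydrogenase, was 8.41 in hyper-ploid and 421 in modal-ploid cells, at least 5.47-fold lower, and it was below background in both sublines of 1833 (27.9 and 44.3). FOXA2, a transcription factor of endoderm, was 6.03 and 219 in the sublines of 4175 against 639.8 and 621 in those of 1833, and its second bright probe set gave -3.33 in the 4175 pair. CDH11, a cadherin of mesenchymal cells, was 52.1 and 431 in the sublines of 4175 and 1747 and 1594 in those of 1833. TIMP3, a metalloproteinase inhibitor, was 549.8 and 2759 in the 4175 pair and 3638 and 3469 in the 1833 pair. PADI4, which turns arginine into citrulline, was 468 in hyper-ploid and 75.1 in modal-ploid cells of 4175. It also differed in the 1833 pair, in the opposite direction, at 11.2 and 62.7 (-1.53), with both arrays below background. In the 1833 pair NDRG2, a stress response gene, was 65.0 in hyper-ploid and 406 in modal-ploid cells, at least 5.66-fold lower. In the 4175 pair NDRG2 was lower too, by less, at 105 and 163 (-0.57). Under the 60th percentile filter it passed limma's threshold over both pairs. Its other probe sets, below background in all sublines, did not show the fall. They gave 0.71 for 1833 and 0.41 for 4175, and -0.005 and 1.30. CST7, a cystatin of immune cells, was 473 in hyper-ploid and 93.8 in modal-ploid cells of 1833. Tested alone against the spread of those 14 lines, limma called 1 gene in the 1833 pair (ALPP; 125 at an unadjusted p under 0.05, 1.31%) and 0 in the 4175 pair (308 unadjusted, 3.22%).

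Differences were then read along the chromosomes, in the order of gene starts in RefSeq, as running medians of 30 neighbouring genes relative to all genes (899 runs, every 10 genes). Genes of the X chromosome lay above all genes in both pairs, by the widest margin of any chromosome in the 1833 pair, while in the 4175 pair chromosomes 7 and 22 had higher medians (0.19 and 0.12). Its 360 genes had a median of 0.24 for 1833 and 0.11 for 4175, and 26.9% and 38.1% of them were lower in hyper-ploid cells, against 42.5% and 55.3% of all genes. Of the 237 X genes above background on all 4 arrays, 115 were higher in both pairs, or 48.5%, against 21.1% of the 6994 genes of other chromosomes. Across 10 settings the X median stayed 0.14 to 0.21 above all genes in the 1833 pair and 0.13 to 0.18 above them in the 4175 pair. The run from RAB33A to IDS was 0.41 above all genes in the 1833 pair and 0.27 above in the 4175 pair, with 24 of 30 genes above the median of all genes in each. Among single X genes, picked after their values were seen, ALG13, which adds sugars to proteins, was 784 and 543 in hyper-ploid against 414 and 369 in modal-ploid sublines. MAGED1, an adaptor of cell death signalling, was 1595 and 5639.8 against 1009 and 4100.4, where the lines overlapped. AIFM1, a mitochondrial flavoprotein released in cell death, was 713 and 772 against 463 and 577, without overlap.

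The 4175 pair showed wider swings along the chromosomes than the 1833 pair, with an SD over runs of 0.18 against 0.11. In the 4175 pair 113 runs were more than 0.2 above all genes and 151 more than 0.2 below, against 33 and 22 in the 1833 pair. Of 40 runs on chromosome 7, 30 were above by that margin in the 4175 pair, and of 31 runs on chromosome 4, 26 were below. The 426 genes of chromosome 7 had a median of 0.19 in the 4175 pair and 0.02 in the 1833 pair. The 339 genes of chromosome 4 had -0.34 and 0.02, with 72.9% and 47.5% lower in hyper-ploid cells. The lowest run of the 4175 pair, from NUDT18 to BNIP3L on chromosome 8, was 0.54 below all genes, and the highest, from CHRNB1 to GAS7 on chromosome 17, was 0.47 above. In the 1833 pair the same runs were -0.02 and -0.13. The chemokine genes CXCL1, CXCL2 and CXCL8 lie on chromosome 4, and its part in their 4175 difference was not tested. Copy number was not measured, and its relation to these runs was not tested.

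**Figure D5:**
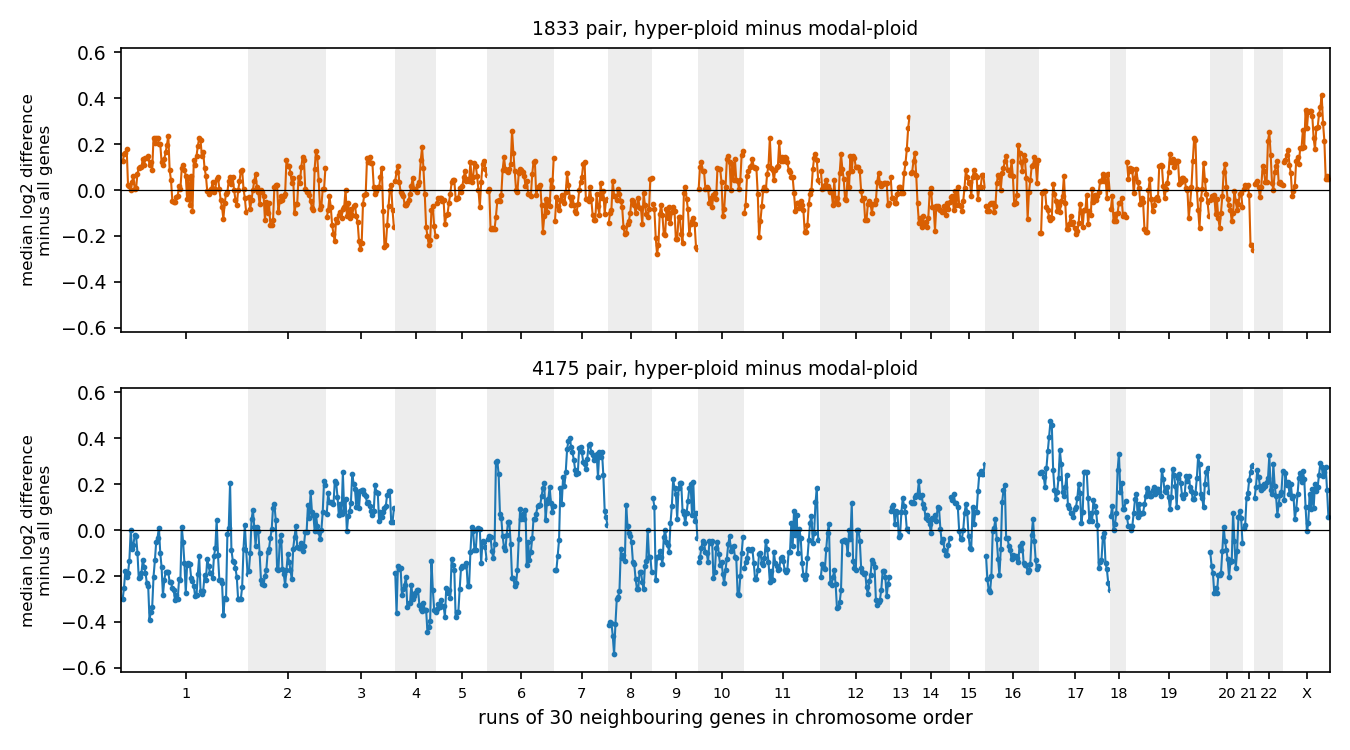
Running median of the log2 difference (hyper-ploid minus modal-ploid) of 30 neighbouring genes, relative to all genes, along chromosomes 1 to 22 and X in gene order (shaded in turn), in the 1833 pair (top, orange) and the 4175 pair (bottom, blue). The X runs lie mostly above 0 at the right of both panels, and in the 4175 pair chromosome 7 lies mostly above 0 and chromosome 4 below it.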

How the data were processed

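RNA of 19 lines was measured on Affymetrix expression arrays, 1 array a line, and the 4 ploidy arrays are compared here. The deposited values are ratios, not the log2 intensities the design had assumed. In the authors' deposited ratios each probe set was divided by a value of its own, in 2 sets of 10 and 9 arrays. How the authors computed the signals is not given in the sources used here. Signals in steps of 0.1 were recovered from the ratios for 22258 of 22283 probe sets (99.9%), against at most 0.0449% after shuffling, and scaled to a common median. Of the probe sets 19071 have 1 gene symbol, 1043 several and 2169 none, and 19059 symbols matched RefSeq. Probe sets above the 40th percentile on at least 2 of 19 arrays were kept (16316), 1 per gene (9554 genes). The percentile stands in for detection calls. Limma 3.58.1 (R 4.3.3) was fitted to log2(signal + 16), with line of origin as block (residual degrees of freedom 1, prior 10.2) and Benjamini-Hochberg adjustment. The difference between pairs took its spread from 14 lines in groups. The cell line label pairs the arrays, and the deviations of a pair's 2 arrays from the means of their ploidy groups correlated at r = 0.52 across 9554 genes. With 2 arrays a group, this r measures how far the difference between the lines is shared by hyper-ploid and modal-ploid cells. The number of arrays limits the precision.

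Named genes were those past the threshold, past 2-fold in both pairs and bright, largest in opposite directions or in 1 pair, largest in each list, and all PKC and polarity genes. Also named, chosen after their values were seen, are ANKRD1, CCND1, CXCL8, CXCR4, ID1, ITGA6, JUP, KRT7, NFKB2, NFKBIA, RELB, ALG13, MAGED1 and AIFM1. Members and lists were chosen with earlier results of these data known. Normalisation, offset, filter, probe set rule, block, variance model and left-out pairs were varied.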

Additional observations from a re-analysis of the deposited data

Results flagged for a closer look

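The difference of ALPP between the pairs, -4.52 on the log2 scale (1833 pair minus 4175 pair), was flagged by limma's test of that difference (adjusted p = 0.000855) and rests on the modal-ploid subline of 1833.

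Other genes were flagged because hyper-ploid cells were higher in 1 pair and lower in the other by more than 2-fold. By this criterion the difference was not tested, and in limma's test none of them passed the threshold. The 1833 pair minus the 4175 pair was 4.30 for KYNU, 4.30 for KIAA0319L, 3.63 for C3, 3.61 for G0S2, 3.43 for ZXDC, 3.15 for CXCL1, 3.11 for GRIA4 and 2.82 for GDF15. It was -3.79 for L1CAM, -3.45 for HTR4 and -2.95 for SEPTIN7P11. Other probe sets of HTR4 and L1CAM, below background on all 4 arrays, did not show these directions. In the 1833 and 4175 pairs those of HTR4 gave 0.64 and -0.27, and 0.19 and 0.34, and that of L1CAM 0.17 and 0.11.

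Lists whose medians lay more than 0.1 above all genes in 1 pair and more than 0.1 below in the other were flagged too, and these differences were not tested. The 1833 median minus the 4175 median was 0.97 for bone metastasis genes, 0.81 for NF-kB and cytokine genes, 0.49 for hypoxia and glycolysis, 0.45 for the respiratory chain, 0.43 for MYC and ribosome biogenesis, 0.36 for aldehyde dehydrogenases and NRF2 targets, and -0.21 for endothelial and stromal markers.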

How the results depend on the processing

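The fit without the replicate block called 0 genes (153 at an unadjusted p under 0.05), against 1 with it. Quantile normalisation, a common trimmed mean, an offset of 8, no filter and the deposited ratios each gave 0 calls in limma. An offset of 64 and the mean of probe sets gave 1, a variance trend 3, a filter on the 4 ploidy arrays 4 and a 60th percentile filter 10. Without 1 pair the count was 0 to 1. Genes past 2-fold in the same direction numbered 22, against 174 at 1.5-fold, 14 under quantile normalisation, 52 and 2 with offsets of 8 and 64, 38 without a filter, 12 and 5 under the ploidy-array and 60th percentile filters, and 89 with the ratios. Genes in opposite directions numbered 27, against 189 at 1.5-fold, 45 and 9 with offsets of 8 and 64, 44 without a filter, 17 and 12 under those filters, and 87 with the ratios. Under those filters the difference between pairs and the 1833 pair alone gave 0 calls, because ALPP was not kept. The 4175 pair alone gave 1 call, not 0, under quantile normalisation, the trimmed mean, an offset of 8 and both filters. Lists more than 0.1 from the median of all genes in opposite directions numbered 3, not 7, under quantile normalisation, and lists more than 0.1 above it in both pairs 1, not 0, under the trimmed mean and both filters. Direction turned for PARD6B (mean 0.17 under the trimmed mean, 0.15 with an offset of 8). The pair difference turned for PALS1 (-0.053 quantile, -0.12 trimmed mean), PARD3 (-0.016 trimmed mean) and SCRIB (-0.0012 trimmed mean). With the mean of probe sets, the mean turned for HK2 (0.28) and PDPK1 (-0.10), and the pair difference for CDC42 (0.21) and MARK2 (-0.20). Except for ALPP, the cause was not tested.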
